A study of Homo sapiens with 27 samples.

Results

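Transcripts of 10 hydrolase genes, PON1, PON2, PON3, CES1, CES2, CES3, AADAC, LIPC, LCAT and BCHE, were followed through FGF receptor and co-receptor knockouts in human liver cancer cells. The genes were picked by symbol, with earlier results of these data known, and no threshold on the measurements was applied. They are 10 of the 58735 genes measured. Expression was measured by RNA sequencing in HuH-7 and JHH-7, both lines derived from hepatocellular carcinoma. KLB encodes beta-klotho, the co-receptor through which the hormone FGF19 signals with FGFR4, and the study asks what loss of KLB or of FGF receptors does to gene expression. HuH-7 had 4 groups: sgNTC, whose genotype is given as WT, and knockouts of KLB (sgKLB), of FGFR4 (sgFGFR4) and of FGFR3 with FGFR4 (sgFGFR3/4). JHH-7 had the same 4 groups and a knockout of FGFR1, FGFR3 and FGFR4 (sgFGFR1/3/4). Each of the 9 groups held 3 libraries, described as biological replicates, 27 in all. All cells were grown in DMEM with fetal bovine serum. Whether a knockout line is 1 clone or a pool is not given in the sources used here, so a difference between groups can also be one between lines of cells, and these cannot be told apart.

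The paraoxonases are calcium-dependent enzymes that open lactone rings. PON1 and PON3 are secreted by hepatocytes and travel on high-density lipoprotein (HDL), whereas PON2 stays inside cells. The carboxylesterases CES1, CES2 and CES3 and the arylacetamide deacetylase AADAC sit in the endoplasmic reticulum and cleave esters and amides of lipids, drugs and foreign compounds. CES1 is the main carboxylesterase of the adult liver. LIPC (hepatic lipase) and LCAT (lecithin-cholesterol acyltransferase) are secreted by the liver and act on lipoproteins, LIPC by cleaving triglycerides and phospholipids and LCAT by esterifying cholesterol on HDL. BCHE, butyrylcholinesterase, is a plasma esterase made by the liver.

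The paraoxonase genes lie side by side on the minus strand of chromosome 7 (GRCh38, GENCODE 29). PON1 spans chr7:95297676-95324707, PON3 chr7:95359944-95396368 and PON2 chr7:95404863-95435329. On chromosome 16, CES1 spans chr16:55802851-55833337 on the minus strand, CES2 chr16:66934444-66945096 and CES3 chr16:66961237-66975148 on the plus strand, and LCAT chr16:67939750-67944131 on the minus strand. LIPC spans chr15:58410569-58569843 and AADAC chr3:151814037-151828488, both on the plus strand, and BCHE spans chr3:165772904-165837472 on the minus strand. LCAT shares 336 exonic bases with SLC12A4 on the same strand, and SLC12A4 was at 26.2 to 39.7 FPKM in HuH-7 and 7.72 to 13.5 in JHH-7, so reads in the shared stretch could be counted for either gene. PON2 shares 190 exonic bases with an antisense gene that did not exceed 2.95 FPKM. CES1P1, a pseudogene copy of CES1, did not exceed 0.24 FPKM in any library.

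RefSeq promoter windows (GRCh38.p14) were found for 7 of the 10 genes. A window is 300 bases, 250 before the transcript start and 50 after it. The 4 sequences below are the 250 bases before the start of PON1, PON3, AADAC and LIPC. They are shown because PON1 and PON3 are neighbours that were higher in opposite lines, and because all 4 genes were called higher in JHH-7 sgKLB from windows of contrasting base composition. Capitals mark the GC box (GGGCGG), the CCAAT box (CCAAT) and the HNF1 consensus motif, searched on both strands. The PON1 stretch is chr7:95324533-95324782 (minus strand), the PON3 stretch chr7:95396376-95396625 (minus strand), the AADAC stretch chr3:151813866-151814115 (plus strand) and the LIPC stretch chr15:58431741-58431990 (plus strand).
PON1: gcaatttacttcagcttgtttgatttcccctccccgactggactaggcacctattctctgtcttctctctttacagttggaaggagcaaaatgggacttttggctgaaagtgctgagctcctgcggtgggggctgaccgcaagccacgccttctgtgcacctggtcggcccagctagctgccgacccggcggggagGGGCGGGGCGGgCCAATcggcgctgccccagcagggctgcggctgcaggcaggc
PON3: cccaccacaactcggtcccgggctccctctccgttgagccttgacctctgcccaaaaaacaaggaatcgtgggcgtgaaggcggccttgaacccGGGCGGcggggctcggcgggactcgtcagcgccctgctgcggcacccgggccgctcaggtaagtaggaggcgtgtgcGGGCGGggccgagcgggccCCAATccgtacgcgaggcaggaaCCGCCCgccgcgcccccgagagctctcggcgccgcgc
AADAC: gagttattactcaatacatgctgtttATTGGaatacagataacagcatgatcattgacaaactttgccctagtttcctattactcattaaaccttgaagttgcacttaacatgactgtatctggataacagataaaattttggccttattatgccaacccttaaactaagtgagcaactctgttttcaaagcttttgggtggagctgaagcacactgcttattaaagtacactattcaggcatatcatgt
LIPC: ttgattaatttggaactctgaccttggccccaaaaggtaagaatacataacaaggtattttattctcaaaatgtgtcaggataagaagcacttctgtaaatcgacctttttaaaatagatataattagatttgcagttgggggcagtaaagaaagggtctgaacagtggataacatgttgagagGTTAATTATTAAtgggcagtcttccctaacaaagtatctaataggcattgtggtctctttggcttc
The PON3 window was rich in G and C, with a GC content of 72.7%, above that of 85.7% of all windows. PON1 at 62.0% and PON2 at 62.3% were nearer the middle, above 58.6% and 59.5% of all windows. PON1 held 2 GC boxes, which overlap by 1 base, and a CCAAT box, PON3 held 3 GC boxes and a CCAAT box, and PON2 held 3 GC boxes. The AADAC and LIPC windows were poor in G and C, at 37.3% and 38.3%, against a median of 58.7% over all 35116 windows. LIPC held a match to the HNF1 motif, which names a hepatocyte transcription factor, at position -66 from the start. The GC box was found in 45.0% of all windows, the CCAAT box in 34.6% and the HNF1 motif in 0.0484%. Other motifs were searched too: HNF4, ETS, AP-1, the TATA box and a direct and an inverted repeat of AGGTCA. They matched none of the 4 windows shown, but ETS matched in CES2, and AP-1 and the TATA box in BCHE. A match is a run of letters, and binding was not measured.

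Depth was estimated, from the steps between low values, at 14.2 to 27.8 M fragments per library (1 M is 1000000). Between 13353 and 14196 genes reached 1 FPKM in HuH-7 libraries and between 13563 and 13904 in JHH-7 libraries. FPKM counts fragments per kilobase of transcript and per M fragments, so levels of different genes can be compared. The targeted transcripts stood at 36.6% to 57.0% of the sgNTC mean in the 11 pairs of group and target, and in all 11 pairs every knockout library was below every sgNTC library. All 8 hepatocyte markers (ALB, APOA1, SERPINA1, TF, TTR, FGB, AHSG and AFP) reached 1 FPKM in both lines. Of 12 stromal, endothelial and immune markers, 6 reached 1 FPKM in each line. Their sum was 307.93 to 440.12 FPKM in HuH-7, most of it LUM (up to 273 FPKM) and CD14 (up to 153 FPKM), and 15.7 to 27.3 FPKM in JHH-7. DCN, VWF, CDH5, PTPRC and CD3E stayed below 1 FPKM in all 27 libraries.

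In the sgNTC libraries the members differed widely between the lines. PON2 was the most abundant member in both, at 102 ± 11.2 FPKM in HuH-7 and 111 ± 11.8 in JHH-7 (SD, n = 3 each, as throughout). The next member was LIPC in HuH-7, at 73.5 ± 2.39, and CES1 in JHH-7, at 51.0 ± 4.97. CES1 was listed at 0.17, 0.04 and 0 FPKM in the HuH-7 sgNTC libraries and at 47.4, 56.7 and 49.0 in those of JHH-7. HuH-7 therefore held nearly no CES1 transcript, and all 12 HuH-7 libraries stayed below 1 FPKM. LIPC was the reverse, at 75.1, 70.8 and 74.8 in HuH-7 and at 5.99, 5.29 and 8.38 in JHH-7. Its mean in JHH-7 was 0.0891 times that in HuH-7. The secreted paraoxonases were also opposed: PON1 had a mean of 5.72 ± 1.31 FPKM in HuH-7 and 0.967 ± 0.496 in JHH-7, and PON3 of 6.80 ± 1.14 in HuH-7 and 32.1 ± 0.350 in JHH-7. LCAT stood at 3.5 ± 0.848 in HuH-7 and 7.62 ± 1.93 in JHH-7, CES2 at 15.2 ± 0.482 and 20.3 ± 3.84, and AADAC at 4.86 ± 1.63 and 6.69 ± 2.38. CES3 and BCHE were below 1 FPKM in every sgNTC library of both lines.

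Of the 9 members that passed the filter over both lines (at least 1 FPKM in at least 3 libraries), 4 were higher and 2 lower in JHH-7 sgNTC than in HuH-7 sgNTC by limma's moderated test with Benjamini-Hochberg adjustment. The background is large here: 35% of all 16731 genes tested were higher and 28.9% lower, so this share of calls is not a result about the members. Differences are given on the log2(FPKM + 1) scale, which understates the change of genes with low FPKM. They were 5.60 ± 0.136 (SE) for CES1 (adjusted p = 9.92e-20), 2.10 ± 0.124 for PON3 (adjusted p = 1e-12), 0.93 ± 0.218 for LCAT (adjusted p = 0.000748) and 0.38 ± 0.105 for CES2 (adjusted p = 0.00337). The negative differences were -3.32 ± 0.131 for LIPC (adjusted p = 6.65e-16) and -1.79 ± 0.216 for PON1 (adjusted p = 1.76e-07). The CES2 difference was 0.23 without JHH-7 sgNTC replicate 2 (adjusted p = 0.042) and 0.24 with quantile normalization, which did not pass (adjusted p = 0.0728). PON2, AADAC and CES3 did not pass, AADAC passed without HuH-7 sgNTC replicate 1 (adjusted p = 0.0371) or JHH-7 sgNTC replicate 2 (0.0132), and their libraries overlapped between the lines. CES1 passed the filter through the JHH-7 libraries alone. The lines were deposited in separate tables, so line and table cannot be told apart. In cultures measured in bulk, fewer expressing cells and less RNA per cell cannot be told apart either.

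**Figure D1:**
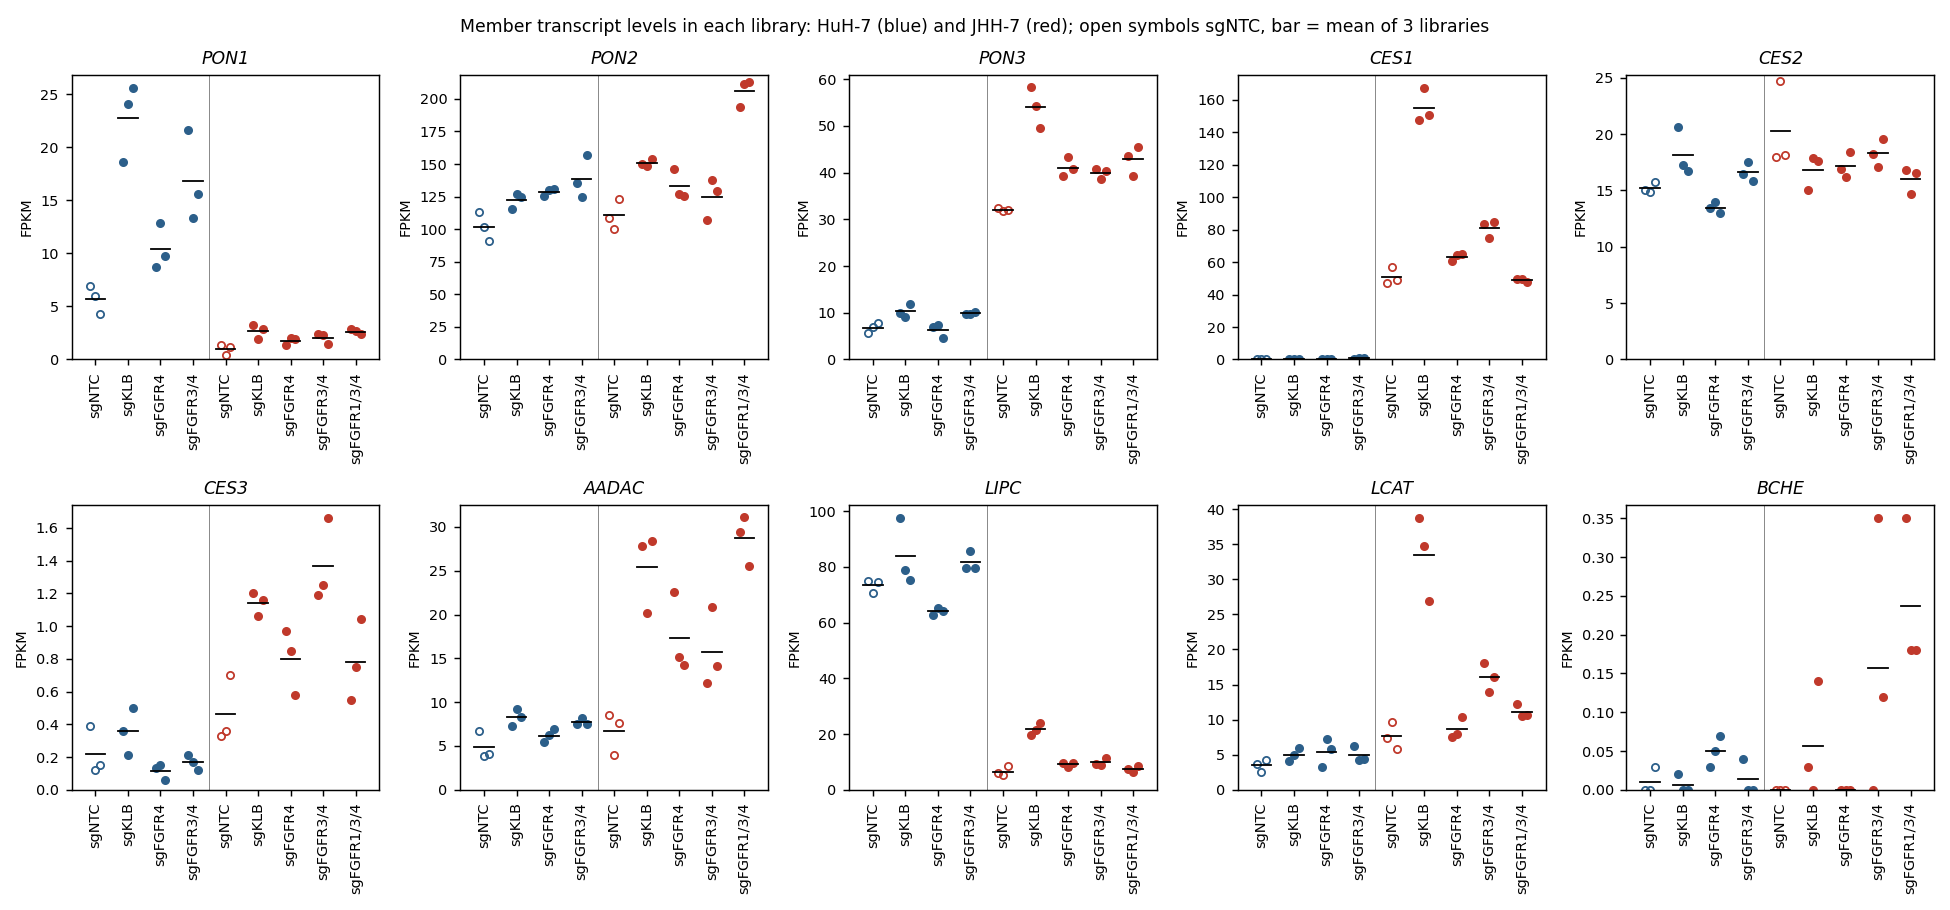
FPKM of the 10 members in each of the 27 libraries, one panel per gene with its own linear axis from 0, HuH-7 groups on the left of the grey line and JHH-7 groups on the right. Points are libraries, open for sgNTC, and bars are means of 3; CES1 is near 0 in HuH-7 and between 47.4 and 167 in JHH-7, and LIPC is between 62.8 and 97.7 in HuH-7 and between 5.29 and 23.9 in JHH-7.

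Against sgNTC of its own line, no member was called lower in any of the 7 knockouts, and CES2 was called lower under the alternatives named with its values. Of all genes tested, 8.62% were called lower in HuH-7 sgKLB, 1.64% in HuH-7 sgFGFR4, 7.22% in HuH-7 sgFGFR3/4, 16.4% in JHH-7 sgKLB, 1.83% in JHH-7 sgFGFR4, 1.29% in JHH-7 sgFGFR3/4 and 19% in JHH-7 sgFGFR1/3/4. In HuH-7, 7 of the 10 members passed the filter in the line, and CES1, CES3 and BCHE did not. Loss of KLB in HuH-7 raised 3 of these 7 (PON1, PON3 and AADAC), where 8.98% of the 14716 genes tested were called higher. The HuH-7 sgFGFR3/4 knockout raised 3 of 7 (PON1, PON2 and AADAC), where 8.9% of all genes were called higher. The HuH-7 sgFGFR4 knockout gave no call among the 7 members by limma, where 2.07% of all genes were called higher. At an unadjusted p under 0.05, 3 of the 7 passed in HuH-7 sgFGFR4, as did 27% of all genes. In JHH-7, 9 of 10 members passed the filter, BCHE being the exception. CES3 passed through its knockout libraries only, so it entered the test because it was high there, and its call in sgKLB supports nothing. Of the 8 others, loss of KLB in JHH-7 raised 7, all but CES2 (8 of 9 with CES3), where 15.5% of the 14987 genes tested were called higher. Of the same 8, the sgFGFR4 knockout raised 3 in JHH-7 (background 2.42%), sgFGFR3/4 raised 4 (2.24%) and sgFGFR1/3/4 raised 5 (20.8%). CES3 was not called in these 3 knockouts. The knockouts of a line share their 3 sgNTC libraries, so these counts are not independent of each other. The members were chosen with earlier results of these data known, so a count above the background is a description and not a test. Some counts rested on single libraries. In HuH-7 the sgKLB count was 1 without sgKLB replicate 2 or sgNTC replicate 2. The HuH-7 sgFGFR4 count was 3 (PON1, PON2 and AADAC) without sgNTC replicate 1, a fit in which the genes called higher also went from 304 to 859 (5.84%). Without any 1 of the other 5 libraries that comparison had 1 to 4 calls over all genes in place of 546. In JHH-7 the sgFGFR4 count was 1 without sgFGFR4 replicate 1 or 2 or sgNTC replicate 1, and the sgFGFR3/4 count was 2 without sgFGFR3/4 replicate 2 or 3 or sgNTC replicate 2.

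The hepatocyte markers were counted in the same knockouts. In HuH-7 sgFGFR4 none of the 8 was called, with a summed level of 6407 to 7116 FPKM. Of all genes there, 2.07% were called higher and 1.64% lower. In HuH-7 sgKLB 7 of the 8 were called higher, with a summed level of 8748 to 9699.5 FPKM against 5693 to 6118 in sgNTC, and in HuH-7 sgFGFR3/4 7 were higher and 1 lower (8130.0 to 8392.5). In JHH-7 sgKLB all 8 were higher (31366 to 32167 FPKM against 14706 to 16379 in sgNTC). In JHH-7 sgFGFR4 and sgFGFR3/4 3 of 8 were higher, and in sgFGFR1/3/4 6 were higher and 2 lower. Of all genes, 8.98% were called higher and 8.62% lower in HuH-7 sgKLB, and 8.9% and 7.22% in HuH-7 sgFGFR3/4. In JHH-7, 15.5% were called higher in sgKLB, 2.42% in sgFGFR4 and 2.24% in sgFGFR3/4. In JHH-7 sgFGFR1/3/4, 20.8% were called higher and 19% lower. These shares also apply to the marker counts below. The summed level of the 12 stromal, endothelial and immune markers was 308 to 321 FPKM in HuH-7 sgKLB and 361 to 401 in HuH-7 sgNTC. In JHH-7 it was 23.8 to 27.3 FPKM in sgKLB and 15.7 to 23.1 in sgNTC. Single markers of this list went both ways. In HuH-7 sgKLB 1 of 6 tested was called higher (COL1A2, a collagen, from 10.0 ± 1.14 to 19.1 ± 1.6 FPKM, adjusted p = 0.000198) and 2 lower (LUM and CD14, adjusted p = 0.00676 and 0.00985). In HuH-7 sgFGFR3/4 COL1A2 was called higher (0.52, adjusted p = 0.00826). In JHH-7 1 of 5 tested was higher in sgKLB (COL1A1, from 2.44 ± 0.936 to 6.31 ± 0.165 FPKM, adjusted p = 0.0111) and 1 in sgFGFR1/3/4 (LUM, 0.77, adjusted p = 0.0371). The part of these markers' movement in the members' results was not tested.

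**Figure D2:**
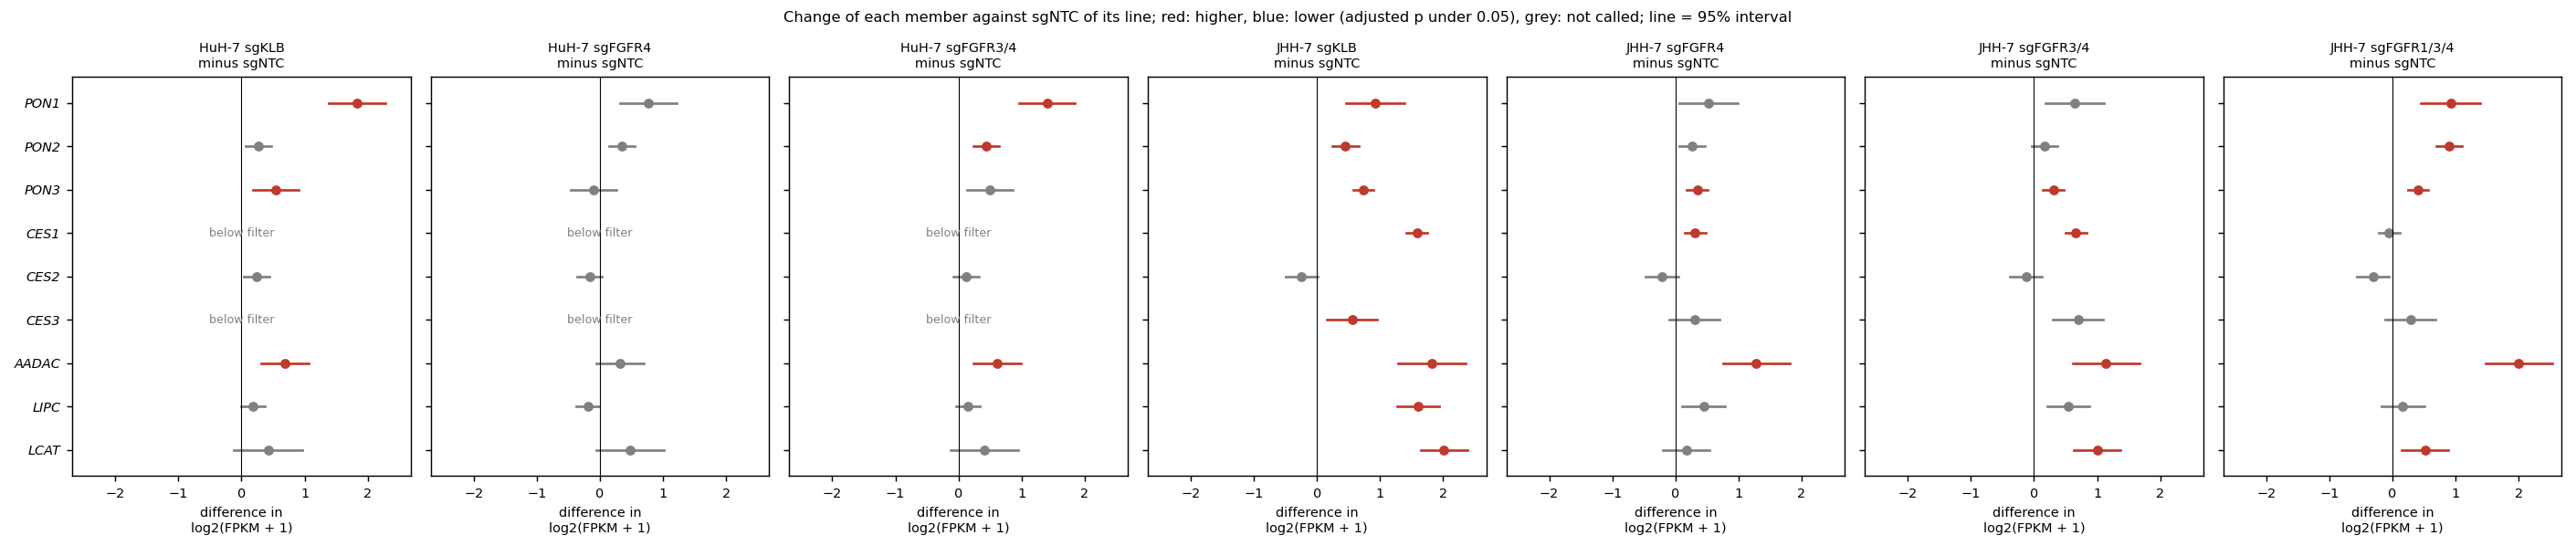
Difference of each member from sgNTC of its line, in log2(FPKM + 1), for the 7 knockouts, with 95% intervals from limma; red points passed an adjusted p under 0.05 as higher, and grey points did not pass. BCHE is not drawn because it passed no filter, and CES1 and CES3 have no test in HuH-7; no point is marked lower, and the JHH-7 sgKLB panel holds 8 red points of 9, CES3 among them.

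PON1, the HDL-bound lactonase, showed the largest change of the tested members in HuH-7. Its level was 6.89, 5.97 and 4.30 FPKM in sgNTC and 18.6, 24.1 and 25.6 in sgKLB. It was 8.70, 12.8 and 9.73 in sgFGFR4 and 21.6, 13.3 and 15.6 in sgFGFR3/4. The group means ran from sgNTC through sgFGFR4 (10.4 ± 2.16) and sgFGFR3/4 (16.8 ± 4.28) to sgKLB (22.8 ± 3.68), and every knockout library was above every sgNTC library. The sgKLB and sgFGFR3/4 libraries overlapped. In sgKLB PON1 rose 3.98-fold, by 1.83 ± 0.205 on the log2 scale (adjusted p = 0.000105), and in sgFGFR3/4 2.95-fold, by 1.40 ± 0.205 (adjusted p = 0.0013). Both calls held without any single library, with adjusted p up to 0.000907 and 0.00706. In sgFGFR4 the difference was 0.77 ± 0.205 and did not pass (adjusted p = 0.0557). Without the HuH-7 sgNTC replicate 1 it did, at an adjusted p of 0.0403.

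In JHH-7 PON1 was scarce. It was at 1.32, 0.40 and 1.18 FPKM in sgNTC, at 3.30, 1.91 and 2.86 in sgKLB and at 2.83, 2.72 and 2.36 in sgFGFR1/3/4. Every library of these knockouts was above every sgNTC library, and the sgNTC replicate 2 was the lowest of all 15. The sgFGFR4 libraries (1.35, 2.03 and 1.96) and the sgFGFR3/4 libraries (2.37, 2.29 and 1.46) also lay above sgNTC, by less. PON1 rose by 0.92 ± 0.217 in sgKLB (adjusted p = 0.00451) and by 0.92 ± 0.217 in sgFGFR1/3/4 (adjusted p = 0.00387). The differences in sgFGFR4 (0.52, adjusted p = 0.211) and sgFGFR3/4 (0.65, adjusted p = 0.132) did not pass. Without the JHH-7 sgNTC replicate 2 they were 0.30 and 0.42 (adjusted p = 0.546 and 0.353). With a pseudocount of 0.1 the sgKLB and sgFGFR1/3/4 differences were both 1.49, and both passed.

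PON3, the other HDL-bound paraoxonase, was the steadiest member in JHH-7 sgNTC, at 32.5, 31.8 and 32.1 FPKM. Its level was 58.3, 54.4 and 49.5 in sgKLB and 43.5, 39.4 and 45.6 in sgFGFR1/3/4. It was 39.2, 43.3 and 40.7 in sgFGFR4 and 40.7, 38.7 and 40.4 in sgFGFR3/4. All 12 knockout libraries were above the sgNTC libraries, sgKLB was the highest group, and the 3 receptor knockouts overlapped with each other. PON3 rose by 0.73 ± 0.0758 in sgKLB (adjusted p = 4.28e-06), by 0.40 ± 0.0758 in sgFGFR1/3/4 (adjusted p = 0.00078), by 0.34 ± 0.0758 in sgFGFR4 (adjusted p = 0.0199) and by 0.31 ± 0.0758 in sgFGFR3/4 (adjusted p = 0.0413). The sgFGFR4 call was lost without sgFGFR4 replicate 2 or any 1 of the 3 sgNTC libraries (adjusted p up to 0.0931), and the sgFGFR3/4 call without any 1 of the 6 libraries (up to 0.118). Both were also lost with only the groups compared (adjusted p = 0.102 and 0.185), and that in sgFGFR3/4 with no filter (0.09) and with TPM (0.0543). With a correction for transcript length and GC content, the sgFGFR1/3/4 difference was 0.15 and did not pass (adjusted p = 0.168), nor did those in sgFGFR4 and sgFGFR3/4 (0.0697 and 0.0795). In HuH-7 PON3 was at 5.63, 6.88 and 7.90 FPKM in sgNTC, 9.94, 9.11 and 11.8 in sgKLB, 7.02, 7.35 and 4.56 in sgFGFR4 and 9.77, 9.81 and 10.1 in sgFGFR3/4. The sgKLB and sgFGFR3/4 libraries lay above sgNTC, and those of sgFGFR4 did not. PON3 rose by 0.54 ± 0.166 in HuH-7 sgKLB (adjusted p = 0.0433), a call that was kept without sgNTC replicate 3 and lost without any 1 of the other 5 libraries (adjusted p up to 0.152). It was also lost with no filter, with quantile normalization and with only the groups compared (adjusted p = 0.0985, 0.0744 and 0.0585). In HuH-7 sgFGFR3/4 the difference was 0.49 (adjusted p = 0.0631), and it passed with TPM, FPKM rescaled to the same sum in every library (adjusted p = 0.0312).

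PON2, the intracellular paraoxonase, stood out in the JHH-7 sgFGFR1/3/4 knockout. It was at 109, 100.03 and 123 FPKM in JHH-7 sgNTC and at 194, 211 and 213 in sgFGFR1/3/4. It was at 149.95, 149 and 154 in sgKLB, at 146, 127 and 126 in sgFGFR4 and at 107, 137 and 130 in sgFGFR3/4 (means 151, 133 and 125). The sgFGFR1/3/4 libraries were above all the others, the sgKLB libraries were above all the rest, and sgFGFR3/4 overlapped with sgNTC. PON2 rose 1.86-fold in sgFGFR1/3/4, by 0.89 ± 0.0964 (adjusted p = 7.49e-06), and 1.36-fold in sgKLB, by 0.45 ± 0.0964 (adjusted p = 0.00239). In HuH-7 it was at 113, 102 and 90.6 FPKM in sgNTC, 115, 127 and 125 in sgKLB, 126, 130 and 131 in sgFGFR4 and 135, 125 and 157 in sgFGFR3/4. All 9 knockout libraries lay above the sgNTC libraries. PON2 rose by 0.44 ± 0.092 in HuH-7 sgFGFR3/4 (adjusted p = 0.00854, and 0.0564 with only the groups compared), and the differences in sgFGFR4 (0.34, adjusted p = 0.0563) and sgKLB (0.27, adjusted p = 0.0655) did not pass. Without the HuH-7 sgNTC replicate 1 both passed, at adjusted p of 0.0348 and 0.0311, and with TPM at 0.048 and 0.0491.

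CES1, the main hepatic carboxylesterase, had the smallest adjusted p of the members in JHH-7 sgKLB. It was at 47.4, 56.7 and 49.0 FPKM in sgNTC and at 148, 167 and 150.4 in sgKLB. It was at 60.4, 64.4 and 65.2 in sgFGFR4, at 83.5, 75.1 and 84.6 in sgFGFR3/4 and at 49.7, 49.6 and 47.7 in sgFGFR1/3/4. The order of the groups was sgKLB, sgFGFR3/4 and sgFGFR4, with no overlap between them, and then sgNTC and sgFGFR1/3/4, which overlapped. CES1 rose 3.04-fold in sgKLB, by 1.59 ± 0.0779 (adjusted p = 2.49e-09), 1.59-fold in sgFGFR3/4, by 0.66 (adjusted p = 0.00033), and 1.24-fold in sgFGFR4, by 0.31 (adjusted p = 0.0374). The sgFGFR4 call was kept without sgNTC replicate 2 and lost without any 1 of the other 5 libraries (adjusted p up to 0.126), with no filter or with only the groups compared (0.0931 and 0.162). In sgFGFR1/3/4 the difference was -0.05 with a 95% interval of -0.22 to 0.11 (adjusted p = 0.618). In HuH-7 the CES1 values were 0.26, 0.41 and 0.20 FPKM in sgKLB, 0.11, 0 and 0 in sgFGFR4 and 0.15, 0.76 and 0.99 in sgFGFR3/4, all under the filter and not tested within the line.

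CES2, the carboxylesterase shared by liver and intestine, passed limma's test in none of the 7 knockouts, but did under some alternatives. In JHH-7 it was at 17.9, 24.7 and 18.2 FPKM in sgNTC and between 14.7 and 19.6 in the 12 knockout libraries. The sgNTC replicate 2 was the highest of the 15. The differences ran from -0.13 in sgFGFR3/4 to -0.31 in sgFGFR1/3/4 (adjusted p = 0.0528 for the latter). That one passed without sgNTC replicate 1 (-0.39, adjusted p = 0.0336) and without sgNTC replicate 3 (-0.38, adjusted p = 0.0387). It passed narrowly with quantile normalization (adjusted p = 0.0495), and without sgNTC replicate 2 it was -0.17 (adjusted p = 0.254). With the length and GC correction CES2 was called lower in JHH-7 sgKLB (-0.27, adjusted p = 0.0479). In HuH-7 the sgKLB libraries (20.6, 17.2 and 16.7) lay above the sgNTC libraries (15.02, 14.9 and 15.8) and the sgFGFR4 libraries (13.4, 14.0 and 13.0) below them. The HuH-7 sgFGFR3/4 libraries (16.44, 17.54 and 15.85) also lay above sgNTC. None of these differences passed. They were 0.24 in sgKLB (adjusted p = 0.1), -0.17 in sgFGFR4 (adjusted p = 0.265) and 0.12 in sgFGFR3/4 (adjusted p = 0.401). The sgKLB difference was called higher with TPM (0.30, adjusted p = 0.0338) and with the length and GC correction (0.23, adjusted p = 0.0478).

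CES3 was near the lower limit of what the data resolve. In JHH-7 it was at 0.33, 0.36 and 0.70 FPKM in sgNTC, 1.20, 1.06 and 1.16 in sgKLB, 0.97, 0.85 and 0.58 in sgFGFR4, 1.19, 1.25 and 1.66 in sgFGFR3/4 and 0.55, 0.75 and 1.04 in sgFGFR1/3/4. The sgKLB and sgFGFR3/4 libraries were all above the sgNTC libraries. CES3 reached 1 FPKM in 7 of the 15 libraries, all of them knockouts, so its test in the line rests on the groups where it was high. The difference was 0.56 ± 0.184 in sgKLB (adjusted p = 0.0317, and 0.0296 with no filter), a call kept without sgNTC replicate 3 and lost without any 1 of the other 5 libraries (adjusted p up to 0.098). It was also lost with quantile normalization and with only the groups compared (adjusted p = 0.0708 and 0.0904). In sgFGFR3/4 the difference was 0.70 (adjusted p = 0.0526), and it passed with a pseudocount of 0.1 (adjusted p = 0.0498) and with the length and GC correction (0.0459). All 12 HuH-7 libraries were at 0.06 to 0.50 FPKM.

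AADAC, the microsomal deacetylase, rose in all 4 JHH-7 knockouts. It was at 8.49, 3.99 and 7.58 FPKM in JHH-7 sgNTC and at 27.8, 20.1 and 28.4 in sgKLB. It was at 22.6, 15.2 and 14.3 in sgFGFR4, at 12.2, 20.9 and 14.2 in sgFGFR3/4 and at 29.4, 31.1 and 25.5 in sgFGFR1/3/4. All 12 knockout libraries were above the sgNTC libraries, and sgFGFR1/3/4 and sgKLB overlapped as the highest groups. AADAC rose 4.29-fold in sgFGFR1/3/4, by 2.00 ± 0.247 (adjusted p = 2.45e-05), and 3.80-fold in sgKLB, by 1.82 ± 0.247 (adjusted p = 5.43e-05). It rose by 1.28 ± 0.247 in sgFGFR4 (adjusted p = 0.0101), which did not pass when sgFGFR4 replicate 1 was left out (adjusted p = 0.0619) or with only the groups compared (0.0844). In sgFGFR3/4 it rose by 1.14 ± 0.247 (adjusted p = 0.0213), and this failed when sgFGFR3/4 replicate 2 or 3 or sgNTC replicate 2 was left out (adjusted p up to 0.0727), with no filter (0.0736) or with only the groups compared (0.142). In HuH-7 AADAC was at 6.74, 3.81 and 4.04 FPKM in sgNTC, 7.31, 9.24 and 8.27 in sgKLB, 5.40, 6.23 and 6.93 in sgFGFR4 and 7.52, 8.17 and 7.53 in sgFGFR3/4. The sgFGFR4 libraries overlapped with sgNTC and the other knockouts did not. AADAC rose by 0.69 ± 0.172 in HuH-7 sgKLB (adjusted p = 0.016), lost without sgKLB replicate 2 or sgNTC replicate 2 or 3 (adjusted p up to 0.0667) and with only the groups compared (0.0614). It rose by 0.61 ± 0.172 in HuH-7 sgFGFR3/4 (adjusted p = 0.0342), kept without sgNTC replicate 1 and lost without any 1 of the other 5 libraries (adjusted p up to 0.119), with no filter, with quantile normalization or with only the groups compared (0.0798, 0.0831 and 0.102). In HuH-7 sgFGFR4 the difference was 0.32 (adjusted p = 0.248), and it passed without the HuH-7 sgNTC replicate 1 (0.54, adjusted p = 0.0414).

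LIPC, hepatic lipase, responded in JHH-7 sgKLB. It was at 5.99, 5.29 and 8.38 FPKM in JHH-7 sgNTC and at 19.8, 21.4 and 23.9 in sgKLB. It was at 9.64, 8.06 and 9.76 in sgFGFR4, at 9.19, 8.98 and 11.6 in sgFGFR3/4 and at 7.35, 6.22 and 8.59 in sgFGFR1/3/4. The sgKLB libraries were above the other 12 libraries, and sgFGFR1/3/4 and sgFGFR4 overlapped with sgNTC. LIPC rose 3.31-fold in sgKLB, by 1.61 ± 0.157 (adjusted p = 2.36e-06). The differences in sgFGFR4 (0.44, adjusted p = 0.14), sgFGFR3/4 (0.54, adjusted p = 0.0762) and sgFGFR1/3/4 (0.16, adjusted p = 0.443) did not pass. Without the JHH-7 sgNTC replicate 3, those in sgFGFR4 (adjusted p = 0.0465) and sgFGFR3/4 (adjusted p = 0.0285) did. In HuH-7, where LIPC is abundant, it was at 75.1, 70.8 and 74.8 FPKM in sgNTC, 97.7, 78.8 and 75.4 in sgKLB, 62.8, 65.4 and 64.1 in sgFGFR4 and 79.8, 85.8 and 79.6 in sgFGFR3/4. The sgFGFR4 libraries were the lowest of the 12. None of these differences passed (0.18, -0.20 and 0.15, adjusted p = 0.18, 0.168 and 0.246). The sgKLB difference was 0.067 without sgKLB replicate 1, and it passed with quantile normalization (0.25, adjusted p = 0.0359). The sgFGFR3/4 difference passed with TPM (0.26, adjusted p = 0.0418). The LIPC gene overlaps ALDH1A2 on the opposite strand with no shared exonic base, and ALDH1A2 was at 0.81 to 36.5 FPKM in JHH-7.

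LCAT, the HDL cholesterol esterifying enzyme, gave the largest fold of the members in JHH-7 sgKLB. It was at 7.37, 9.66 and 5.82 FPKM in JHH-7 sgNTC and at 38.8, 34.8 and 26.9 in sgKLB. It was at 7.58, 7.89 and 10.4 in sgFGFR4, at 18.1, 14.0 and 16.1 in sgFGFR3/4 and at 12.2, 10.5 and 10.7 in sgFGFR1/3/4. From high to low the groups were sgKLB, sgFGFR3/4, sgFGFR1/3/4, and then sgFGFR4 and sgNTC, which overlapped. LCAT rose 4.40-fold in sgKLB, by 2.01 ± 0.173 (adjusted p = 6.97e-07), and 2.11-fold in sgFGFR3/4, by 1.00 ± 0.173 (adjusted p = 0.00533, and 0.0623 with only the groups compared). In sgFGFR1/3/4 it rose by 0.51 ± 0.173 (adjusted p = 0.0291), and this failed when sgFGFR1/3/4 replicate 1 or 3 or sgNTC replicate 1 or 3 was left out (adjusted p up to 0.13) and with no filter (0.0743). In HuH-7 it was at 3.70, 2.57 and 4.23 FPKM in sgNTC, 4.10, 4.98 and 5.90 in sgKLB, 3.19, 7.22 and 5.79 in sgFGFR4 and 6.29, 4.25 and 4.33 in sgFGFR3/4. These differences were 0.42, 0.47 and 0.41 with overlapping or nearly touching libraries, and none passed (adjusted p = 0.282, 0.237 and 0.276).

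BCHE was at most 0.07 FPKM in HuH-7 and 0.35 in JHH-7. It was listed at 0 in the 3 sgNTC and the 3 sgFGFR4 libraries of JHH-7 and at 0.35, 0.18 and 0.18 in sgFGFR1/3/4. It passed no filter and was not tested.

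The JHH-7 knockouts were also compared with each other. The labels of sgFGFR1/3/4 and sgFGFR3/4 differ by FGFR1. Their FGFR3 and FGFR4 transcripts differed too, at 38.5% and 45.2% of the sgNTC mean in sgFGFR1/3/4 and 48.8% and 56.8% in sgFGFR3/4. The part of FGFR1 in the differences was not tested. In sgFGFR1/3/4 against sgFGFR3/4, 2 of 9 members were higher (background 16.8%) and 2 lower (15.4%). These shares are near those of all genes, so the counts are not a result about the members. Without CES3, which passed the filter only through knockout libraries, those of sgFGFR3/4 among them, 2 of 8 were higher and 2 lower. PON2 was higher by 0.73 ± 0.0964 (adjusted p = 9.64e-05) and AADAC by 0.86 ± 0.247 (adjusted p = 0.0164). CES1 was lower, at -0.71 ± 0.0779 (adjusted p = 2.2e-05), and LCAT at -0.49 ± 0.173 (adjusted p = 0.0436). For these 4 genes the libraries of the 2 groups did not overlap, and neither did those of CES2 and LIPC, which were not called. Those of CES3 did not overlap either, but it entered the test through groups where it was high, so this supports nothing. The share of all genes without overlap was not counted. The AADAC call was lost without sgFGFR1/3/4 replicate 2 or sgFGFR3/4 replicate 1 or 3 (adjusted p up to 0.0769), and the LCAT call was kept without sgFGFR3/4 replicate 2 and lost without any 1 of the other 5 libraries (up to 0.148). The count of 4 fell to 2 without sgFGFR1/3/4 replicate 2 or sgFGFR3/4 replicate 1 or 3. With the length and GC correction the AADAC difference was 0.52 (adjusted p = 0.0694) and that of LCAT -0.27 (adjusted p = 0.219). Both calls were also lost with no filter (adjusted p = 0.0514 and 0.106), and that of LCAT with TPM (0.0705). LIPC was at -0.38 (adjusted p = 0.0778), and it passed with quantile normalization (-0.41, adjusted p = 0.0482).

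Between JHH-7 sgKLB and sgFGFR1/3/4, 4 of 9 members were higher in sgKLB (background 15.9%) and 1 lower (19.7%). Without CES3, which passed the filter only through knockout libraries, those of sgKLB among them, 4 of 8 were higher and 1 lower. CES1 was 3.17-fold higher (1.64 ± 0.0779, adjusted p = 1.26e-08), LCAT 3.01-fold (1.5 ± 0.173, adjusted p = 2.77e-05), LIPC 2.94-fold (1.44 ± 0.157, adjusted p = 1.69e-05) and PON3 1.26-fold (0.33 ± 0.0758, adjusted p = 0.00413). PON2 was lower, at -0.44 ± 0.0964 (adjusted p = 0.00275). The 5 calls held without any single library, and the PON3 difference was 0.57 with the length and GC correction. PON1 and AADAC were not separated: their differences were 0.00 (95% interval -0.46 to 0.47) and -0.18 (-0.71 to 0.35).

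**Figure D3:**
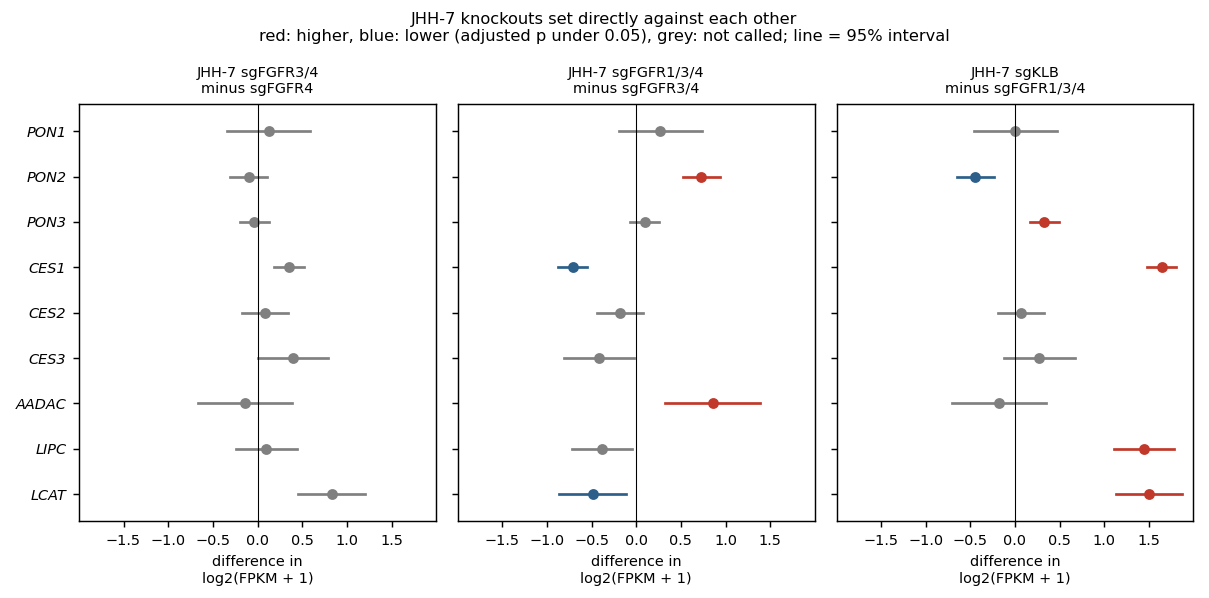
Difference of each member in log2(FPKM + 1) for the direct comparisons of JHH-7 knockouts, with 95% intervals from limma; red and blue points passed an adjusted p under 0.05 as higher and lower. CES1 and LCAT are lower in sgFGFR1/3/4 than in sgFGFR3/4 and higher in sgKLB than in sgFGFR1/3/4, and PON2 has the opposite signs.

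Between sgFGFR3/4 and sgFGFR4 no member was called by limma in either line. The background was 1.62% of genes in either direction in HuH-7 and 0.0133% in JHH-7. At an unadjusted p under 0.05, 4 of 7 members passed in HuH-7, where 13.5% of all genes did, and 3 of 9 in JHH-7, where 5.11% did. The 3 in JHH-7 were LCAT, CES1 and CES3. CES3 passed the filter only through knockout libraries, those of sgFGFR3/4 among them and none of sgFGFR4, so its place in this count supports nothing. The JHH-7 libraries of sgFGFR3/4 were above those of sgFGFR4 for LCAT (0.83, 95% interval 0.46 to 1.20, adjusted p = 0.466) and CES1 (0.35, 0.18 to 0.52, adjusted p = 0.573). In HuH-7 the LIPC difference was 0.35 (0.16 to 0.53, adjusted p = 0.0766), and it passed with TPM, with quantile normalization and with the length and GC correction (adjusted p = 0.0379, 0.0232 and 0.046). Between sgKLB and sgFGFR3/4 in HuH-7 no member was called (background 0.55%) and 0 of 7 passed at an unadjusted p under 0.05, as 17.4% of all genes did. The PON1 difference there was 0.43 with an interval of -0.02 to 0.88.

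The response to loss of KLB differed between the lines for 6 of the 9 members tested over both lines. Their change was larger in JHH-7 for 4 (background 9.8%) and smaller for 2 (9.9%). The 9 include CES1 and CES3, which passed the filter through JHH-7 libraries alone, and without them 5 of 7 differed. The count of 6 was 4 or 5 in each of the 12 fits without 1 library, and 4 with a pseudocount of 0.1 or with no filter. LCAT changed by 0.42 in HuH-7 and 2.01 in JHH-7, a difference of 1.59 ± 0.309 (adjusted p = 0.000625). LIPC changed by 0.18 and 1.61, a difference of 1.43 ± 0.185 (adjusted p = 5.99e-06), and AADAC by 0.69 and 1.82, a difference of 1.13 ± 0.322 (adjusted p = 0.0151). CES1 changed by 0.27 and 1.59, a difference of 1.32 ± 0.192 (adjusted p = 2.49e-05), but it was near 0 FPKM in HuH-7, and with a pseudocount of 0.1 the difference was 0.32 (adjusted p = 0.771). PON1 went the other way, with 1.83 in HuH-7 and 0.92 in JHH-7 (-0.91 ± 0.305, adjusted p = 0.0388), and CES2 had 0.24 and -0.24 (-0.48 ± 0.148, adjusted p = 0.025). The PON1 difference was lost without any 1 of 8 of the 12 libraries, all but replicate 1 of both sgKLB groups, HuH-7 sgNTC replicate 1 and JHH-7 sgNTC replicate 2 (adjusted p up to 0.111). With a pseudocount of 0.1 it was -0.50 (adjusted p = 0.508), and it was also lost with no filter and with TPM (adjusted p = 0.0842 and 0.0653). The CES2 difference was lost without HuH-7 sgKLB replicate 1, JHH-7 sgKLB replicate 1 or replicate 2 of either sgNTC (up to 0.0788), and with no filter or quantile normalization (0.0506 and 0.0751). The AADAC difference was lost without HuH-7 sgNTC replicate 1 or JHH-7 sgNTC replicate 2 (up to 0.0511). PON2 (0.18, 95% interval -0.10 to 0.47) and PON3 (0.19, -0.17 to 0.56) were not separated.

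For sgFGFR4 no member differed between the lines by limma (background 4.12% in either direction), and 3 of 9 passed at an unadjusted p under 0.05, as did 19.9% of all genes, namely AADAC (0.96, adjusted p = 0.0952), LIPC (0.64, adjusted p = 0.053) and PON3 (0.45, adjusted p = 0.147). LIPC passed without the JHH-7 sgNTC replicate 3 (0.81, adjusted p = 0.0126), and AADAC with quantile normalization (1.11, adjusted p = 0.0452) and with the length and GC correction (1.06, adjusted p = 0.0237). For sgFGFR3/4 the PON1 difference, not called with all libraries, passed without the JHH-7 sgNTC replicate 2 (-0.98, adjusted p = 0.044). With all libraries 1 of 9 members differed for sgFGFR3/4 (background 3.77% higher and 3.44% lower): CES3, by 0.76 ± 0.209 (adjusted p = 0.0308). Its level in HuH-7 was under 1 FPKM throughout, and it passed the filter only through JHH-7 knockout libraries, those of sgFGFR3/4 among them, so this call supports nothing. With no filter the adjusted p was 0.0342. With a pseudocount of 0.1 and with the length and GC correction the call was lost (adjusted p = 0.0727 and 0.0631). The CES3 call was lost without HuH-7 sgFGFR3/4 replicate 3, HuH-7 sgNTC replicate 1 or 3, JHH-7 sgFGFR3/4 replicate 3 or JHH-7 sgNTC replicate 1 or 2 (adjusted p up to 0.0776).

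**Figure D4:**
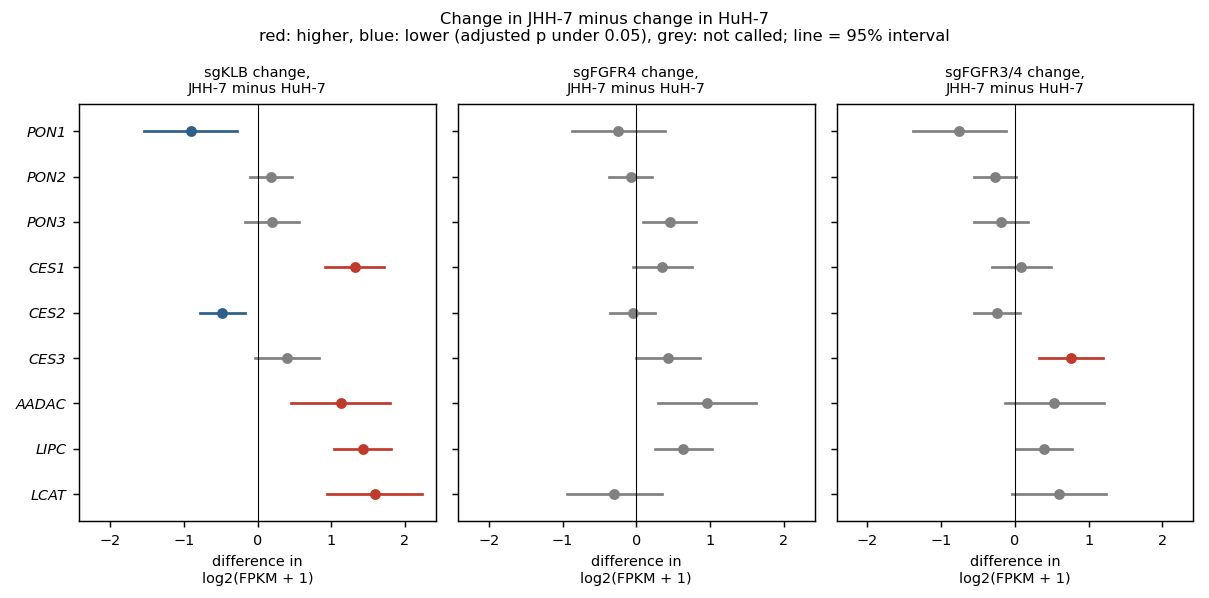
Difference between the lines in the change of each member, JHH-7 minus HuH-7, in log2(FPKM + 1), for the 3 knockouts made in both lines, with 95% intervals from limma. In the sgKLB panel CES1, AADAC, LIPC and LCAT are called higher (red) and PON1 and CES2 lower (blue), and in the sgFGFR4 panel no point is called.

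Members varied together across libraries to different degrees. Pearson correlations of log2(FPKM + 1) between members that passed the filter are descriptions, since the points share libraries and groups. Over the 12 HuH-7 libraries the 21 pairs ran from -0.07 to 0.96 with a median of 0.46, and the closest pair was CES2 and LIPC (0.96). Over the 15 JHH-7 libraries the 36 pairs ran from -0.82 to 0.93 with a median of 0.47. The closest pairs there were CES1 and LIPC (0.93) and CES1 and LCAT (0.92). PON1 went with AADAC (0.87) and against CES2 (-0.82). JHH-7 sgNTC replicate 2 was the lowest library of the line for PON1 and AADAC and the highest for CES2. HuH-7 sgKLB replicate 1 was the highest of its line for both CES2 and LIPC. The part of these single libraries in the correlations was not tested. After centring each gene on its line, the genes most like PON1 over the 27 libraries were AFP (0.89), SELENOP (0.88) and EPB41L4B (0.88), among 7713 genes whose mean log2(FPKM + 1) reached 3 in both lines. The gene most like PON3 was SORD (0.88), and those most like CES1 were SEMA4G (0.92), F10 (0.90) and NEU4 (0.90). For CES1 the likeness rested on JHH-7: over the HuH-7 libraries alone the same 3 genes had correlations of 0.55, 0.48 and 0.59.

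A list of 32 other esterases, lipases and epoxide hydrolases was counted beside the members. This list and the next were also chosen with earlier results known, so their counts are descriptions. In HuH-7 sgKLB 7 of 27 tested rose and 2 fell, with a median of 0.26 against 0.02 over all genes, of which 8.98% rose and 8.62% fell. EPHX2, the soluble epoxide hydrolase, rose from 62.3 ± 4.10 to 94.0 ± 6.07 FPKM (adjusted p = 0.00107), and LIPG, endothelial lipase, fell from 7.19 ± 1.35 to 4.06 ± 0.546 (adjusted p = 0.0113). In JHH-7 sgKLB 12 of 28 rose (15.5% of all genes did) and 2 fell (16.4%), with a median of 0.18 against -0.02. ACOT1, an acyl-CoA thioesterase, rose from 6.77 ± 1.49 to 31.1 ± 0.519 FPKM (adjusted p = 5.17e-08), CMBL, a carboxymethylenebutenolidase homolog, rose from 15.9 ± 1.07 to 35.0 ± 1.16 (adjusted p = 6.85e-07), and LIPG fell from 8.98 ± 1.20 to 5.46 ± 1.19 (adjusted p = 0.00678). In JHH-7 sgFGFR1/3/4 7 of 28 rose (20.8% of all genes did) and 4 fell (19%), near the shares of all genes, with a median of 0.02 against 0.03. NCEH1, a cholesteryl ester hydrolase, rose from 3.55 ± 1.14 to 8.33 ± 0.443 (adjusted p = 0.000235), and PNPLA4, a patatin-like lipase, fell from 11.9 ± 1.88 to 6.90 ± 1.59 (adjusted p = 0.000855). In the other knockouts fewer were called: none of 27 by limma in HuH-7 sgFGFR4 (8 at an unadjusted p under 0.05, against 27% of all genes), 4 higher and 1 lower in HuH-7 sgFGFR3/4 (8.9% and 7.22%), and 2 higher of 28 in each of JHH-7 sgFGFR4 and sgFGFR3/4 (2.42% and 2.24%).

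A list of 12 genes of HDL and lipoprotein remodelling, the particles on which PON1, LCAT and LIPC are known to act, also had called members in the sgKLB knockouts. APOA1 is in this list and among the hepatocyte markers. In HuH-7 sgKLB 6 of 11 tested rose (8.98% of all genes did) and none fell, with a median of 0.43. In JHH-7 sgKLB 7 of 11 rose (15.5%) and 1 fell (16.4%), with a median of 0.39. APOA1, the main HDL apolipoprotein and activator of LCAT, rose from 172 ± 13.4 to 426 ± 23.2 FPKM in HuH-7 sgKLB (adjusted p = 3.6e-06) and from 919 ± 95.5 to 3199 ± 233 in JHH-7 sgKLB (adjusted p = 3.11e-09). APOC3, an inhibitor of lipoprotein lipolysis, rose from 204 ± 10.5 to 953 ± 58.5 in JHH-7 sgKLB (adjusted p = 5.75e-10). In JHH-7 sgFGFR1/3/4 2 of 11 rose (20.8% of all genes did) and 4 fell (19%), with a median of -0.12. There APOA2, an HDL apolipoprotein, fell from 6089 ± 174 to 3167 ± 259 (adjusted p = 4.65e-06). HuH-7 sgFGFR3/4 had 4 of 11 higher (8.9%), HuH-7 sgFGFR4 1 (2.07%), and JHH-7 sgFGFR4 and sgFGFR3/4 2 each (2.42% and 2.24%), with none lower.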

How the data were processed

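RNA sequencing of 27 libraries in 9 groups was read from 2 deposited tables, one per cell line. RSEM and GRCh38 are named in the submitters' processing notes. The sources used here name no aligner, annotation or version. The values deposited by the authors are FPKM for 58735 genes, a unit read from the values, and read counts were not used here. The gene IDs were all found in GENCODE 29, which gave positions and overlaps. The labels name biological replicates without saying whether they are separate cultures, so p-values measure only the spread between these samples.

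From the deposited FPKM, log2(FPKM + 1) was computed and fitted in R 4.3.3 with limma 3.58.1, using its trend and robust settings with statmod 1.5.0, with 1 mean per group. Genes with at least 1 FPKM in at least 3 libraries were kept, 14716 in HuH-7, 14987 in JHH-7 and 16731 over both lines. All libraries of a line, or all 27 for comparisons between lines, shared 1 estimate of the spread. Tests were two-sided with a threshold of 0.05 on p-values adjusted after Benjamini and Hochberg across every gene tested. There were 16 comparisons: 7 knockouts against sgNTC, 5 between knockouts, 1 between the sgNTC groups and 3 of a knockout's change between lines. Intervals are 95% intervals of limma.

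The members and lists were chosen with earlier results of these data known. All 10 members are named. Of each list, up to 2 genes in each direction with the smallest p may be named per comparison, and for PON1, PON3 and CES1 the 3 most correlated genes, passing over pseudogenes; some genes that this rule picks are not reported here. Depth was estimated from the spacing of low FPKM values, of which 86.6% to 91.9% lay within 0.1 of a whole fragment, so no counting intervals are given. The fits were tested on simulated data first. In simulated sgKLB comparisons, log2 changes of 0.5 were recovered in 30% of cases for HuH-7 and 36% for JHH-7. Changes of 1 were recovered in 66% and 80%. A difference that did not pass is therefore not shown to be absent. Alternatives were a pseudocount of 0.1, no filter, rescaling to TPM, quantile normalization, the replicate number as a block, fits of only the groups compared and leaving out each library. A correction for transcript length and GC content was added after seeing the data.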

Additional observations from a re-analysis of the deposited data

Results flagged for a closer look

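A set of 7 changes differed between the lines by the test of the difference itself, and no explanation was tested. For loss of KLB, the change in JHH-7 minus that in HuH-7, in log2(FPKM + 1), was 1.59 for LCAT, 1.43 for LIPC, 1.32 for CES1, 1.13 for AADAC, -0.48 for CES2 and -0.91 for PON1. For loss of FGFR3 and FGFR4 it was 0.76 for CES3. In HuH-7, CES1 and CES3 were under 1 FPKM in all 12 libraries, and both passed the filter only through JHH-7 libraries, CES3 only through knockouts. With a pseudocount of 0.1 the CES1 difference was 0.32 (adjusted p = 0.771), that of PON1 -0.50 (adjusted p = 0.508) and that of CES3 1.61 (adjusted p = 0.0727), and none of these 3 passed.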

How the results depend on the processing

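Of 48 calls on members, 32 held in every fit that left out 1 library, 28 under every other alternative and 27 throughout. The calls that held include CES1, LIPC and LCAT in JHH-7 sgKLB and PON1 in both sgKLB groups. The counts of members called changed as follows, and the cause was not tested. Rescaled to TPM, HuH-7 sgKLB gave 5, sgFGFR4 1 and sgFGFR3/4 5 against sgNTC, and HuH-7 sgFGFR3/4 against sgFGFR4 gave 1 (LIPC), as it did with quantile normalization and with the length and GC correction. That correction gave 5 in HuH-7 sgKLB, 2 for JHH-7 sgFGFR1/3/4 against sgFGFR3/4, 0 for the sgFGFR3/4 difference between lines and 1 for the sgFGFR4 difference, which was also 1 with quantile normalization. Without the filter, JHH-7 sgFGFR1/3/4 against sgFGFR3/4 gave 2 and JHH-7 sgFGFR3/4 gave 2. With a pseudocount of 0.1 the sgFGFR3/4 difference between lines gave 0. With only the groups compared, HuH-7 sgKLB gave 1, HuH-7 sgFGFR3/4 1, JHH-7 sgFGFR3/4 1 and JHH-7 sgFGFR4 0. Leaving out 1 library gave 1 to 3 in HuH-7 sgKLB, 0 to 3 in HuH-7 sgFGFR4, 1 to 2 in JHH-7 sgFGFR4 (each of the 6 fits lost at least 1 of its 3 calls), 2 to 4 in JHH-7 sgFGFR3/4, 2 to 4 for JHH-7 sgFGFR1/3/4 against sgFGFR3/4, 4 to 5 for the sgKLB difference between lines (6 with all libraries), and 0 to 1 for the sgFGFR3/4 and for the sgFGFR4 difference between lines.

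The sign turned only for differences that had not passed. With the length and GC correction, JHH-7 sgKLB against sgFGFR1/3/4 became 0.21 for AADAC and -0.15 for CES2, and JHH-7 sgFGFR1/3/4 against sgNTC became 0.056 for CES1. PON1 in JHH-7 sgKLB against sgFGFR1/3/4 became -0.0023 with a pseudocount of 0.1, -0.015 with quantile normalization, -0.0347 with TPM, and -0.12 to 0.17 without 1 library. Without 1 library CES1 in JHH-7 sgFGFR1/3/4 ran from -0.10 to 0.023, CES2 in JHH-7 sgFGFR3/4 from -0.20 to 0.015 and PON3 in HuH-7 sgFGFR4 from -0.22 to 0.079.

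Replicate numbers did not pair the samples: deviations of same-numbered libraries correlated at -0.21 to 0.08 in HuH-7 and -0.19 to 0.05 in JHH-7. With the replicate block, HuH-7 sgKLB and sgFGFR3/4 each gave 2 members called, JHH-7 sgKLB 8, and the sgFGFR4 difference between lines 1 (LIPC). The block gained 4 member calls, all of LIPC: that one, JHH-7 sgFGFR4 and sgFGFR3/4 against sgNTC (adjusted p = 0.0487 and 0.0224) and JHH-7 sgFGFR1/3/4 against sgFGFR3/4 (0.0206). It ended 6. Between the sgNTC groups the block was not run, since the numbers are nested in the lines. Over all genes, HuH-7 sgFGFR4 had 546 calls, and 1 without the filter, with the block or with only the groups compared, 1207 without HuH-7 sgNTC replicate 1 and 1 to 4 without any 1 of the other 5 libraries. TPM moved the median of all genes from 0.07 to 0.17 in HuH-7 sgFGFR3/4 and the split of calls there from 1309 higher and 1062 lower to 2238 and 639.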
